A study of Mus musculus with 14 samples.

Results

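The 9 genes described here encode histone variants that are used in the mouse testis. They were chosen by name, as the rows Hist1h1t, Hils1, H1fnt, Hist1h2aa, Hist1h2ba, H2afb1, H2afx, H3f3a and H3f3b among the 20626 genes of the expression tables, and every row was found and passed the filter of at least 1 FPKM (fragments counted on a gene, scaled by its length and the library's depth) on average in some group. Polyadenylated RNA was sequenced from germ cells of adult C57BL/6J mice, sorted on Hoechst and propidium iodide staining. The spermatocytes in the pachytene or diplotene stage of meiotic prophase are called PD, and the haploid round spermatids that follow meiosis are called RS. Both came from WT mice and from mice labelled Setd2KO, which makes 4 groups of 2 RNA-seq libraries, each group also with 1 list of H3K36me3 peaks. Setd2 is the methyltransferase that trimethylates lysine 36 of histone H3 over transcribed genes. The labels give neither the deleted part of Setd2, nor a Cre driver, nor whether libraries came from separate animals, so the p-values cover only the spread from library to library, and that spread may be technical.

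Male germ cells exchange much of their histone complement before protamines compact the sperm genome. In meiotic prophase the linker histone H1t (Hist1h1t) and the paired core variants TH2A (Hist1h2aa) and TH2B (Hist1h2ba) are deposited alongside the somatic histones. Spermatids then use the linker histones HILS1 (Hils1) and H1T2 (H1fnt) and short H2A variants of the H2A.L and H2A.B type. H2AX (H2afx) is phosphorylated at DNA breaks and over the sex chromosomes in meiosis, and H3f3a and H3f3b both encode H3.3, the H3 variant that replaces nucleosomes outside replication. The row named H2afb1 lies on chromosome 2 and spans 542 bases. In RefSeq that place and length belong to H2al2a, the H2A.L.2 gene, which carries H2afb1 as an older name, while the other RefSeq gene with that older name is H2ab1 on X, with 348 bases. Values of the H2afb1 row are therefore given here for the chromosome 2 gene.

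The depth of the libraries, recovered from the steps of the FPKM values, was between 50.8 and 84.9 megareads. For the 7 members without introns the values came out as whole fragments in all 8 libraries, from 39 fragments of H2afb1 in PD WT replicate 2, with an exact 95% Poisson interval of 27.7 to 53.3 for counting error only, up to 70188 of Hist1h2ba in PD Setd2KO replicate 2. Libraries of a group correlated at r = 0.992 to 0.995 across tested genes. The sum of all FPKM values was lowest in PD WT replicate 1, at 181915, against 219288 to 234791 in the other 7. The markers Acrv1 and Piwil1 followed the labels. Acrv1, an acrosome gene, had 238 and 182 FPKM in RS WT and 2.86 and 4.03 in PD WT. Piwil1, a piRNA-binding protein, had 186 and 148 FPKM in PD WT and 6.33 and 7.58 in RS WT. All 12 round spermatid markers were higher in RS WT than in PD WT at adjusted p under 0.05. The spermatocyte markers were mixed: of 13 tested, 7 were lower in RS WT and 2 were higher. Setd2 itself had 21.2 and 19.1 FPKM in WT and 21.0 and 21.4 in Setd2KO spermatocytes (adjusted p = 0.736). In round spermatids it had 5.24 and 5.58 FPKM in WT and 12.1 and 8.67 in Setd2KO (adjusted p = 0.00162). Since the deleted part is not given, this level checks no label.

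Promoter windows from RefSeq (GRCm38.p6, 250 bases before to 50 after the annotated start, 5′ to 3′ on the gene's strand) are shown for members of each expression class described below, together with H3f3b, which shares a motif with the Hist1h2ba window. Capitals mark matches, on either strand, to the TATA box TATAAA, the box named after its letters CCAAT, the core TGACG of cAMP response elements, the octamer ATTTGCAT, the half-site GTTGCC of X-box motifs or the GC box GGGCGG. Overlapping matches run together. Hist1h1t is at chr13:23695561-23695860 on the plus strand, Hist1h2ba at chr13:23934107-23934406 on the minus strand, Hils1 at chr11:94967343-94967642 on the plus strand, H1fnt at chr15:98257258-98257557 on the minus strand, H2afb1 at chr2:17996909-17997208 on the minus strand and H3f3b at chr11:116024455-116024754 on the minus strand.
Hist1h1t: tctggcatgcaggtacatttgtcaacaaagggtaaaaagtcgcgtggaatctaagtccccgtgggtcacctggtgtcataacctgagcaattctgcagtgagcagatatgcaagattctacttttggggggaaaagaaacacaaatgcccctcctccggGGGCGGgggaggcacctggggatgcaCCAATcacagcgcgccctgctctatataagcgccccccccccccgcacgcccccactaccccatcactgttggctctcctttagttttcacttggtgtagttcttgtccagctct
Hist1h2ba: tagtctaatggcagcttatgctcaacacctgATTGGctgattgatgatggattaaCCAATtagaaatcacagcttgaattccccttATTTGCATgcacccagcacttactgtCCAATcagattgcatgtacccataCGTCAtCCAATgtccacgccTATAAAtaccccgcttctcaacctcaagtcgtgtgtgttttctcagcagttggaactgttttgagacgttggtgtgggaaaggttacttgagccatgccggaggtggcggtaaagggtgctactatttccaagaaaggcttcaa
Hils1: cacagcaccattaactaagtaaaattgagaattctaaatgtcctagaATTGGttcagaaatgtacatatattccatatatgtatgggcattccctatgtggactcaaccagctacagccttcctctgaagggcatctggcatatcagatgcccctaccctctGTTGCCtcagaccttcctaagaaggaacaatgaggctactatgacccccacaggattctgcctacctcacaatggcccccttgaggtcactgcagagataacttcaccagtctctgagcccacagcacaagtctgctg
H1fnt: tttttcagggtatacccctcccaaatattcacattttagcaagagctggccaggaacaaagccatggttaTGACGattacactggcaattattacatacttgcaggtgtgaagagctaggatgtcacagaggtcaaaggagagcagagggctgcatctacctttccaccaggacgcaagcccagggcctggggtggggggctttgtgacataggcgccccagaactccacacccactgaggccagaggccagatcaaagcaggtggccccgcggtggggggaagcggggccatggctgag
H2afb1: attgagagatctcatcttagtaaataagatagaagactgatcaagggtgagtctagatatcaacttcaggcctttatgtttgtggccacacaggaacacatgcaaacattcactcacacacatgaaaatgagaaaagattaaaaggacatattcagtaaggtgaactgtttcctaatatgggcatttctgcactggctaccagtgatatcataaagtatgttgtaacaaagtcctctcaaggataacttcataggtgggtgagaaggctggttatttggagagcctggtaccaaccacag
H3f3b: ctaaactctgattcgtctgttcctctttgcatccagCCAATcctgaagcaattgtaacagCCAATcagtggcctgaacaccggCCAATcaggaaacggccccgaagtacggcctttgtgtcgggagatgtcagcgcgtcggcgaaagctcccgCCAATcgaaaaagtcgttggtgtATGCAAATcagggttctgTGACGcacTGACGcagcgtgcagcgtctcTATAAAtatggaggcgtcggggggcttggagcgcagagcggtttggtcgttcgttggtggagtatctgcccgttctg

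The windows of 8 of the 9 members were found. Hist1h2ba and Hist1h2aa are a head-to-head pair whose windows share 220 bases, so they are nearly 1 sequence read from both sides, and their matches are not independent. The octamer ATTTGCAT was in 3 windows, those of Hist1h2ba (base -164, counted from the start), Hist1h2aa (-124) and H3f3b (-74), and 1.74% of 32851 RefSeq windows of the same length hold it. TATAAA was in the same 3 windows, against 13.6% of all windows. CCAAT was in 6 (37.4%), TGACG in 4 (20.8%), GGGCGG in 2 (35.7%) and GTTGCC in 1, that of Hils1 (12.5%). The full palindrome TGACGTCA, which contains TGACG, was in 0 of the 8 (1.79%). The H2afb1 window held none of these 7 motifs, which says only that these letters are not in this window.

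The first comparison asked how the members differ between the stages in WT cells. All 9 differed between RS and PD at adjusted p under 0.05 (limma on log2(FPKM + 1), Benjamini-Hochberg adjusted over 11452 genes), 4 of them higher in RS and 5 lower. Most genes differ between these cell types: 36% of all tested genes were higher in RS and 46.7% were lower. The median gene was at -0.21 on the log2 scale, so a change is relative to that shift.

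Of the meiotic variants, Hist1h2ba and Hist1h1t were among the most abundant transcripts of WT spermatocytes. Hist1h2ba had 1030 and 1453 FPKM in PD WT and 15.5 and 21.8 in RS WT. It ranked 2 among all genes in PD WT by mean FPKM. Hist1h1t had 596 and 766 FPKM in PD WT, rank 8, and 8.76 and 9.90 in RS WT. Hist1h2aa had 89.0 and 105 FPKM in PD WT, rank 377, and 3.44 and 3.74 in RS WT. In each case both PD libraries were far above both RS libraries. The log2 change from PD to RS was -6.04 ± 0.16 (SE) for Hist1h1t (adjusted p = 1.88e-09), -5.98 ± 0.22 for Hist1h2ba (adjusted p = 2.30e-09) and -4.42 ± 0.14 for Hist1h2aa (adjusted p = 1.88e-09). H2afx followed the same order, with 51.4 and 84.5 FPKM in PD WT and 4.76 and 5.92 in RS WT, a log2 change of -3.41 ± 0.22 (adjusted p = 4.09e-08).

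The spermatid variants ran the other way. Hils1 had 6.36 and 8.35 FPKM in PD WT and 344 and 298 in RS WT. H1fnt had 3.97 and 4.11 FPKM in PD WT and 161 and 141 in RS WT. H2afb1 had 2.06 and 1.39 FPKM in PD WT and 53.5 and 48.0 in RS WT. No library of one stage overlapped those of the other. The log2 changes were 5.27 ± 0.25 for Hils1 (adjusted p = 5.51e-09), 4.92 ± 0.18 for H1fnt (adjusted p = 2.10e-09) and 4.26 ± 0.18 for H2afb1 (adjusted p = 2.98e-09). The ratio of Hist1h1t to Hils1 within a library was 93.8 and 91.8 in PD WT and 0.0255 and 0.0333 in RS WT, so the main linker histone transcript differed between the stages, while the summed FPKM of Hist1h1t, Hils1 and H1fnt was 607 and 779 in PD WT and 514 and 449 in RS WT.

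The H3.3 genes changed least. H3f3a had 111 and 154 FPKM in PD WT and 185 and 181 in RS WT, a log2 change of 0.48 ± 0.18 (adjusted p = 0.0287). That call was lost in 8 alternative settings, where the adjusted p was between 0.0555 and 0.121, among them without PD WT replicate 1, either PD Setd2KO replicate or either RS WT replicate. H3f3b had 153 and 104 FPKM in PD WT and 53.3 and 75.4 in RS WT, a log2 change of -0.98 ± 0.22 (adjusted p = 0.00124). H3f3a has processed copies elsewhere in the genome whose reads the authors' counting could have split, so its level is uncertain. The summed FPKM of both genes was 264 and 258 in PD WT and 239 and 256 in RS WT, and the share of H3f3b in that sum was 58.0% and 40.2% in PD WT and 22.3% and 29.4% in RS WT.

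**Figure D1:**
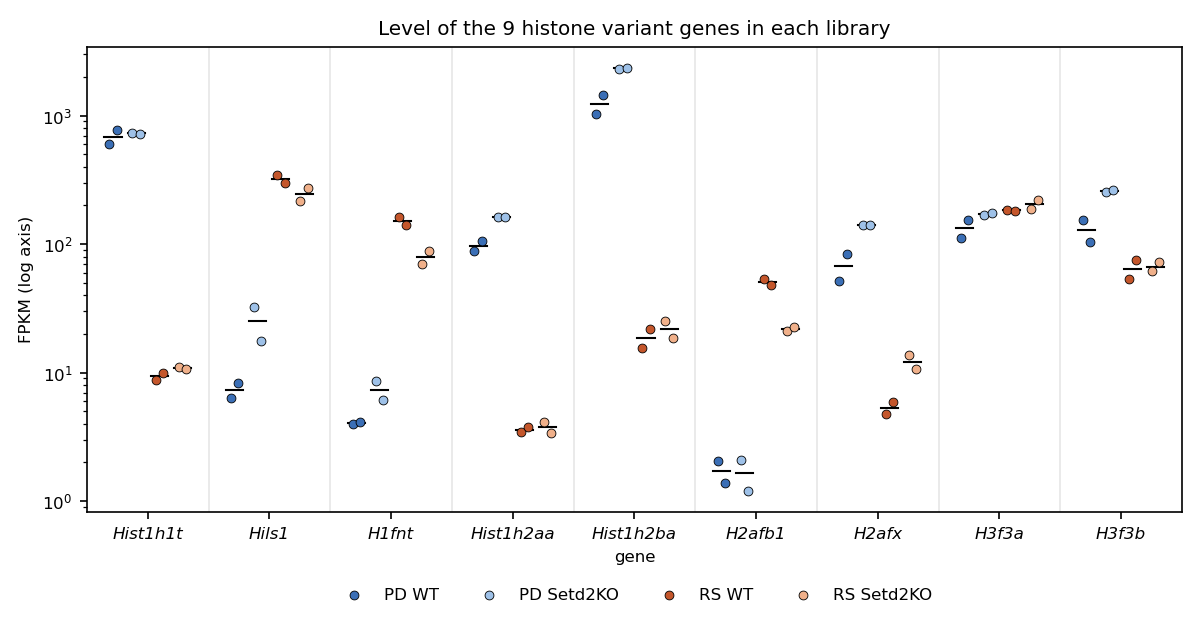
FPKM (log axis) of the 9 histone variant genes in each of the 8 libraries, with 1 point per library, a line at the mean of the 2 libraries of a group, and colours for the 4 groups. Hist1h1t, Hist1h2aa, Hist1h2ba and H2afx are high in PD, Hils1, H1fnt and H2afb1 are high in RS, and the H3.3 genes H3f3a and H3f3b lie within 53.3 to 265 FPKM in every library.

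The same stage order held in Setd2KO cells. There 3 members were higher in RS and 5 lower, against 34.2% and 48.5% of all tested genes, and H3f3a was not called, with a log2 change of 0.24 ± 0.18 (adjusted p = 0.233). The step was smaller for the spermatid variants, at 3.29 ± 0.25 for Hils1, 3.27 ± 0.18 for H1fnt and 3.13 ± 0.18 for H2afb1. For Hist1h2ba it was -6.68 ± 0.22 and for Hist1h1t -5.95 ± 0.16. This comparison and that in WT share no library, but the difference between the steps is the same quantity as the difference between the genotype effects, tested below.

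In PD, the second comparison set Setd2KO against WT. Of the 9 members 6 rose at adjusted p under 0.05 and 0 fell, where 29.8% of all tested genes rose and 6.3% fell. The median gene was at 0.19 on the log2 scale, and the median of the 9 members was 0.75. With upper-quartile scaling the split over all genes was 1836 higher and 1642 lower, and with quantile normalization 1506 and 1787, against 3409 and 721 on the deposited scale. The 6 calls held under both.

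Among the meiotic core variants, Hist1h2ba had 2313 and 2341 FPKM in PD Setd2KO, above both WT libraries, and ranked 1 among all genes. The log2 change was 0.93 ± 0.22 (adjusted p = 0.00895). Hist1h2aa had 164 FPKM in both Setd2KO libraries, also above both WT libraries, a log2 change of 0.75 ± 0.14 (adjusted p = 0.00256). These rises are not particular to the pair: of 60 clustered replication-type histone genes described below, 45 rose and 1 fell, with a median of 0.80. The ratio of Hist1h2ba to Hist1h2aa was 11.6 and 13.8 in PD WT and 14.1 and 14.3 in PD Setd2KO, and both partners of the pair changed by similar amounts. In RS the ratio was 4.52 and 5.83 in WT and 6.10 and 5.41 in Setd2KO. Hist1h1t, the meiotic linker variant, had 734 and 723 FPKM in PD Setd2KO, between the 2 WT libraries. Its log2 change was 0.11, with a 95% interval of -0.24 to 0.46 (adjusted p = 0.619).

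H2afx and H3f3b also rose. H2afx had 142 and 141 FPKM in PD Setd2KO, above both WT libraries, a log2 change of 1.09 ± 0.22 (adjusted p = 0.00333). H3f3b had 254 and 265 FPKM, again above both WT libraries, a log2 change of 1.03 ± 0.22 (adjusted p = 0.00433). H3f3a had 168 and 176 FPKM in PD Setd2KO against 111 and 154 in WT, a log2 change of 0.39 with a 95% interval of -0.01 to 0.79 (adjusted p = 0.115). The H3f3b share of the summed H3.3 transcripts was 60.2% and 60.1% in PD Setd2KO, and the sum was 423 and 441 FPKM.

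The spermatid linker histones were low in PD but higher in Setd2KO. Hils1 had 32.6 and 17.6 FPKM in PD Setd2KO against 6.36 and 8.35 in WT, a log2 change of 1.59 ± 0.25 (adjusted p = 0.00115), the greatest of the 9. H1fnt had 8.61 and 6.08 FPKM against 3.97 and 4.11, a log2 change of 0.71 ± 0.18 (adjusted p = 0.00995). H2afb1 had 2.09 and 1.2 FPKM in PD Setd2KO and overlapped the WT libraries at 2.06 and 1.39. Its log2 change was -0.05, with a 95% interval of -0.44 to 0.33 (adjusted p = 0.827).

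Without PD WT replicate 1 and PD Setd2KO replicate 1, an alternative chosen after the data were seen, 3 members were called in PD. H1fnt (adjusted p = 0.149), Hist1h2ba (adjusted p = 0.130) and H2afx (adjusted p = 0.0634) were no longer among them. Leaving out PD WT replicate 1 alone left 4, with H1fnt (adjusted p = 0.0514) and Hist1h2ba (adjusted p = 0.0584) lost, and without PD Setd2KO replicate 1 H1fnt was lost (adjusted p = 0.117).

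Many, but not all, other spermatid transcripts rose with Hils1 and H1fnt in PD. A class of 517 genes with at least 20 FPKM in RS WT and a level in PD WT at least 20-fold lower, which includes Hils1, H1fnt and H2afb1, was set beside them. Since the class was chosen on the WT libraries, low in PD and high in RS, its low PD WT percent is set by that choice, and the choice itself favours a rise in PD Setd2KO and a fall in RS Setd2KO. Its values are a description. The median class gene stood in PD WT at 1.92% and 2.77% of its mean RS WT level, and in PD Setd2KO at 13.1% and 7.67% of its mean RS Setd2KO level. Hils1 stood at 1.98% and 2.60% in PD WT and at 13.3% and 7.20% in PD Setd2KO. H1fnt stood at 2.62% and 2.72%, and at 10.8% and 7.67%. For H2afb1 the percent was 4.05% and 2.74% in WT and 9.54% and 5.47% in Setd2KO, but its PD level overlapped between genotypes and the RS Setd2KO level it is divided by was lower, so that shift is no rise in PD. In PD Setd2KO 447 of the 517 rose and 4 fell. The summed FPKM of 12 round spermatid markers was 86.4 and 119 in PD WT and 241 and 163 in PD Setd2KO, and 10 of the 12 rose. The sum over 11 elongating and condensing spermatid markers was 222 and 199.6 in PD WT and 220.2 and 141 in PD Setd2KO, where 5 rose and 2 fell. The sum over 11 spermatogonial markers was 26.1 and 28.0 in PD WT and 45.3 and 56.7 in PD Setd2KO. The part of other cells in the results for Hils1 and H1fnt was not tested. In such bulk samples, fewer cells of a type and less RNA per cell cannot be told apart.

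**Figure D2:**
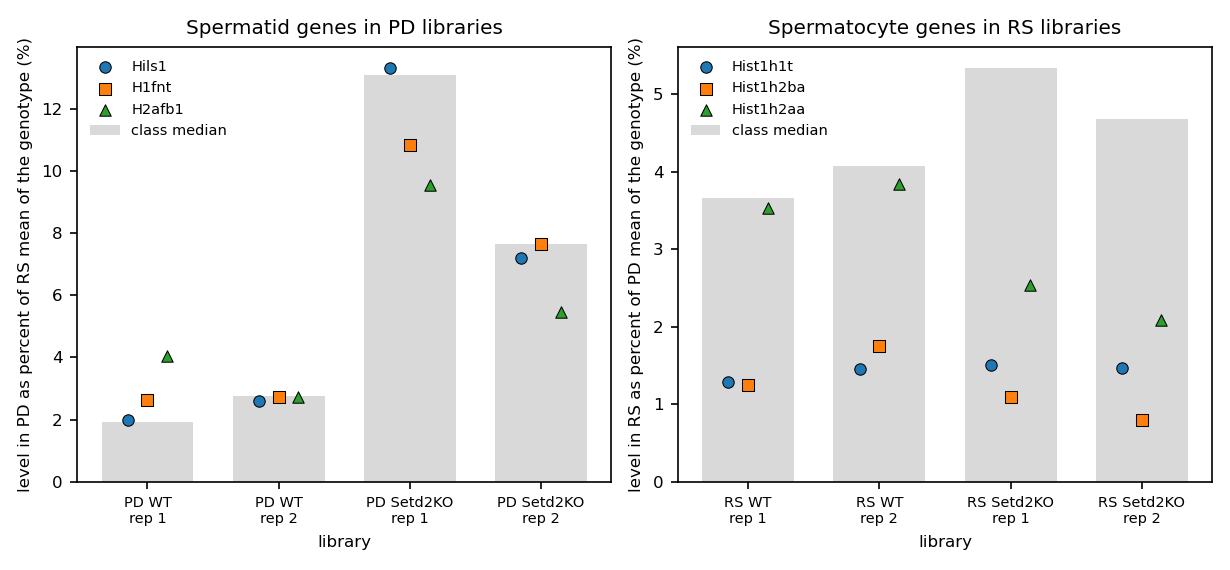
Left, level of spermatid genes in each PD library as a percent of the mean RS level of the same genotype. Right, level of spermatocyte genes in each RS library as a percent of the mean PD level. Bars are the median of the class (517 spermatid genes, 24 spermatocyte genes) and points are members, each of which belongs to the class drawn with it. Hils1 follows the bars in PD, rising to 13.3% and 7.20% in Setd2KO, while Hist1h1t and Hist1h2ba lie under the bars in every RS library.

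In RS, the third comparison again set Setd2KO against WT. Of the 9 members 1 rose and 2 fell, where 20.9% of all tested genes rose and 21.8% fell and the median gene was at 0.02 on the log2 scale. These 3 calls held under every alternative tried. H2afb1 had 20.9 and 22.8 FPKM in RS Setd2KO against 53.5 and 48.0 in WT, with no overlap, a log2 change of -1.18 ± 0.18 (adjusted p = 0.000387). H1fnt had 69.8 and 88.9 FPKM against 161 and 141, again with no overlap, a log2 change of -0.93 ± 0.18 (adjusted p = 0.00167). H2afx had 13.7 and 10.6 FPKM against 4.76 and 5.92, both above WT, a log2 change of 1.05 ± 0.22 (adjusted p = 0.00271). These sizes correspond to a level 2.26-fold lower for H2afb1, 1.91-fold lower for H1fnt and 2.07-fold higher for H2afx on the log2(FPKM + 1) scale.

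Hils1 had 215 and 274 FPKM in RS Setd2KO, below both WT libraries at 344 and 298. Its log2 change was -0.40, with a 95% interval of -0.95 to 0.16 (adjusted p = 0.223). The ratio of Hils1 to H1fnt was 2.13 and 2.11 in RS WT and 3.08 in both RS Setd2KO libraries. For the meiotic variants, levels in RS were low in both genotypes. Hist1h1t had 11.0 and 10.7 FPKM in RS Setd2KO against 8.76 and 9.90 (log2 change 0.20, 95% interval -0.15 to 0.55). Hist1h2ba had 25.4 and 18.5 FPKM against 15.5 and 21.8 (0.22, -0.27 to 0.72), and Hist1h2aa had 4.16 and 3.42 against 3.44 and 3.74 (0.06, -0.25 to 0.37). The H3.3 genes were not called either, at 0.15 (-0.25 to 0.56) for H3f3a, with 187 and 222 FPKM in RS Setd2KO, and 0.07 (-0.41 to 0.54) for H3f3b, with 61.3 and 72.1 FPKM.

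Markers of other cells also differed between the RS libraries. The summed FPKM of 11 elongating and condensing spermatid markers was 5223 and 5227 in WT and 1763 and 1866 in Setd2KO round spermatids, and 9 of the 11 fell. Over 12 round spermatid markers the sum was 1740 and 1643 in WT and 1136 and 1463 in Setd2KO. Of these 12, 0 rose and 1 fell, with a median log2 change of -0.41. The sum over 14 spermatocyte markers was 320 and 339 in WT and 526 and 491 in Setd2KO. Of the 13 tested, 6 rose and 1 fell. Between the stages in WT, 7 of these 13 were lower in RS and 2 were higher. This sum is therefore not a measure of spermatocytes alone. Over 10 Sertoli cell markers the sum was 4.72 and 7.08 against 14.5 and 12.8. Clu and Inha made up most of that sum, and only 3 of the 10 were tested, of which 3 rose. Over 6 peritubular myoid markers the sum was 2.48 and 3.74 against 15.8 and 16.1. It was 9.69 and 5.13 against 10.4 and 14.7 over 7 Leydig cell markers. For 6 macrophage markers, 2.25 and 3.95 in WT overlapped 3.42 and 2.79 in Setd2KO. The Sertoli receptor gene Fshr was at most 0.0876 FPKM in any library. Of the 517 spermatid genes, 227 fell and 12 rose in RS, with a median of -0.50, in a class chosen for high RS WT values. The part of these shifts in the results for H2afb1, H1fnt and H2afx was not tested. The median of 24 spermatocyte genes, chosen by the mirror of the rule above, stood in RS at 3.66% and 4.08% of the PD level in WT and at 5.35% and 4.68% in Setd2KO. Hist1h1t, Hist1h2ba and Hist1h2aa are in this class and H2afx is not. The rule sets the low WT percent of the class, so the place of H2afx above its WT median is fixed by that choice. H2afx stood at 7.0% and 8.71% in WT and at 9.73% and 7.52% in Setd2KO, Hist1h1t at 1.29% and 1.45%, and at 1.51% and 1.47%.

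**Figure D3:**
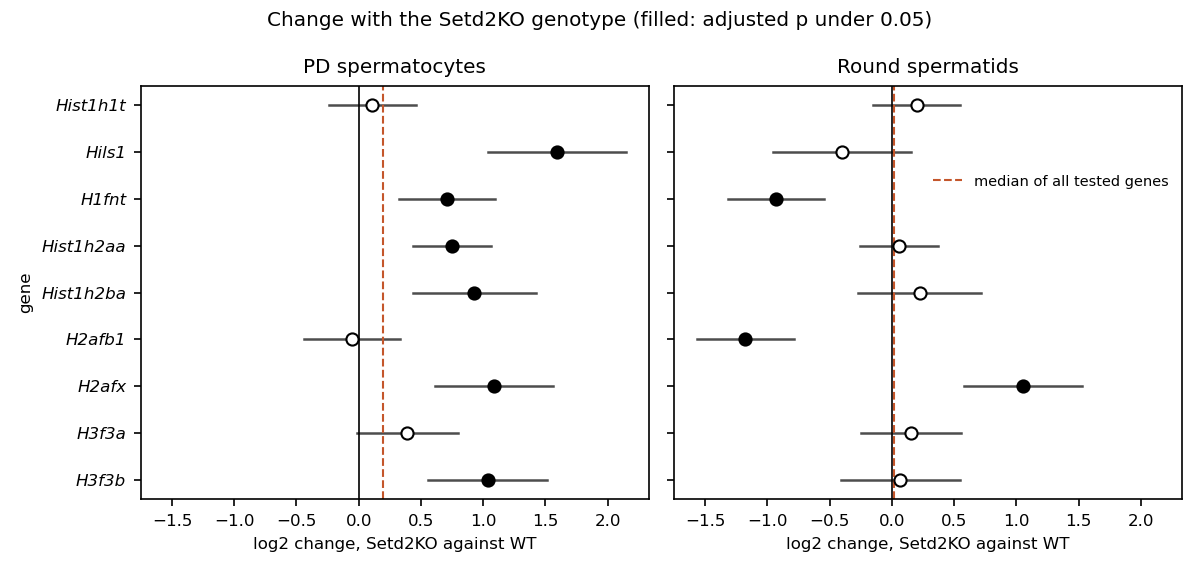
Log2 change with the Setd2KO genotype in PD (left) and RS (right) for the 9 members, with 95% intervals from limma, filled points at adjusted p under 0.05, and a dashed line at the median of all tested genes (0.19 in PD and 0.02 in RS). The filled points are 6 members to the right of 0 in PD, and in RS H1fnt and H2afb1 to the left of 0 and H2afx to the right.

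The difference between the genotype effects in RS and PD was then tested. Of the 9 members 5 had a lower effect in RS than in PD and 0 a higher one, where 27.3% of all tested genes were lower and 7.76% higher. The median gene was at -0.16. With upper-quartile scaling the split over all genes was 2389 higher and 2273 lower, and with quantile normalization 2327 and 2074, against 889 and 3126. The difference was -1.99 ± 0.36 for Hils1 (adjusted p = 0.00191), -1.64 ± 0.25 for H1fnt (adjusted p = 0.000880) and -1.12 ± 0.25 for H2afb1 (adjusted p = 0.00545), and these 3 held under every alternative. For H3f3b it was -0.97 ± 0.31 (adjusted p = 0.030) and for Hist1h2aa -0.69 ± 0.20 (adjusted p = 0.020), and neither call held under upper-quartile scaling (adjusted p = 0.102 and 0.0628). H3f3b was also lost with quantile normalization (adjusted p = 0.0975). Without RS WT replicate 2 both were lost (adjusted p = 0.133 for H3f3b and 0.0755 for Hist1h2aa), as they were without either PD Setd2KO replicate (adjusted p between 0.0585 and 0.0775). H3f3b was also lost without PD WT replicate 2 (adjusted p = 0.0688), without RS Setd2KO replicate 1 (adjusted p = 0.122) and with no filter (adjusted p = 0.109). Hist1h2aa was lost without RS Setd2KO replicate 2 (adjusted p = 0.0855) and without the first replicates of both PD groups (adjusted p = 0.0771). For H2afx, which rose in both stages, the difference was -0.04 with a 95% interval of -0.71 to 0.64. For Hist1h2ba it was -0.70 (adjusted p = 0.109), for H3f3a -0.24 (adjusted p = 0.513) and for Hist1h1t 0.09 (adjusted p = 0.789).

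**Figure D4:**
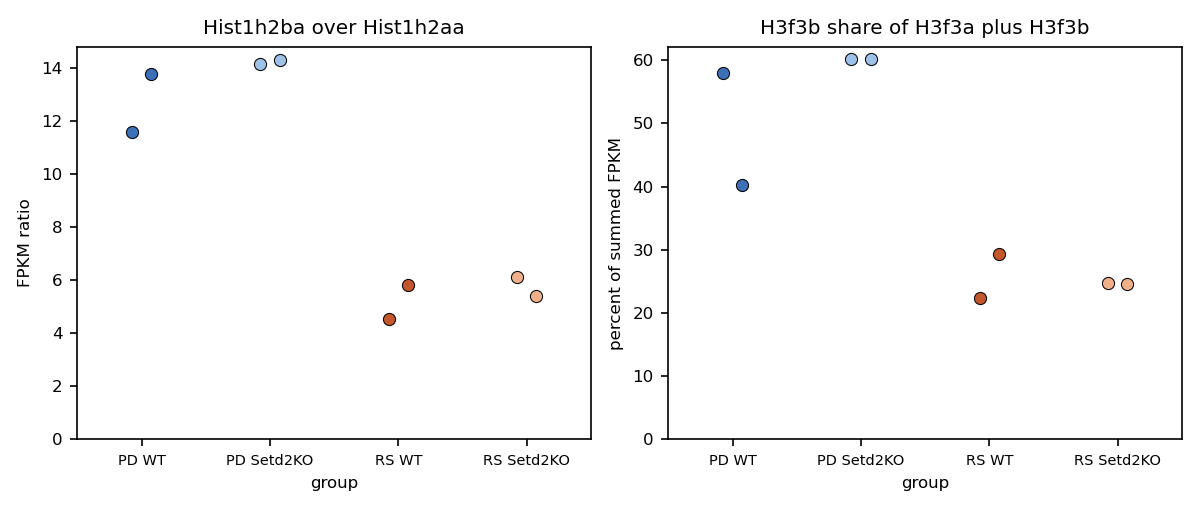
Left, ratio of Hist1h2ba to Hist1h2aa FPKM and, right, H3f3b as a percent of the summed H3f3a and H3f3b FPKM, with 1 point per library. The Hist1h2ba ratio is 11.6 or more in PD and 6.10 or less in RS, and the H3f3b share is 40.2% or more in PD and 29.4% or less in RS.

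H3K36me3 peaks lay over 6 of the 9 members in PD WT and over 6 in RS WT, the same ones in both: Hils1, Hist1h2aa, Hist1h2ba, H2afx, H3f3a and H3f3b. Over all genes, 44.4% had a peak in PD WT and 43.0% in RS WT. In the Setd2KO lists 0 of the 9 had one, where 1.91% of all genes did in PD and 5.21% in RS. The nearest Setd2KO peak to any member was 43034 bases away, from Hist1h1t in RS. With 1 list per group these are descriptions without a test. Scores are the authors' and are used only within a list. The labels hold an input sample for each PD group and none for RS, so the PD and RS lists may not have been made alike. Coordinates below are those of the deposited mm9 files, and they differ from the GRCm38.p6 places of the promoter windows.

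Hils1, at chr11:94828907-94829770 (plus strand), was covered over its whole length by 1 peak in PD WT, chr11:94826378-94832942 with a score of 722.64, higher than 80.21% of that list. In RS WT the peak ran over chr11:94823269-94832863, with a score above 93.41% of its list. Both peaks extend well past the gene. Hils1 lies inside Sgca, a muscle sarcoglycan gene on the other strand, so the mark cannot be assigned to 1 of the 2. Sgca moved the other way from Hils1, with 6.82 and 9.0 FPKM in WT and 4.78 and 3.95 in Setd2KO spermatocytes (log2 change -0.73, adjusted p = 0.00319). In round spermatids it had 3.58 and 3.16 FPKM in WT and 5.63 and 5.90 in Setd2KO (log2 change 0.63, adjusted p = 0.00473). The library kit keeps strand per the labels, but whether the counting used it is not stated there.

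Hist1h2ba (chr13:24025594-24026025, minus strand) and Hist1h2aa (chr13:24026331-24026782, plus strand) are 305 bases apart and shared 1 peak. In PD WT it ran over chr13:24025705-24027080, scored 76.44, above 16.61% of that list, and covered 74.31% of Hist1h2ba and all of Hist1h2aa. In RS WT, where both transcripts are low, it ran over chr13:24023868-24028859, scored above 59.61% of the list and covered both genes. With only peaks of score 100 or more, the PD WT peak was gone and 4 members kept one.

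H2afx, at chr9:44142798-44144156 (plus strand), was covered over 73.07% in PD WT, by a peak that began 366 bases after its start. A further PD WT peak, chr9:44136847-44142792 with a score of 834.85, ended 5 bases before the H2afx start. In RS WT H2afx was fully covered by 1 peak of 9548 bases that also reaches into its neighbour Dpagt1, an enzyme gene of N-glycosylation. Dpagt1 was low, with 0.321 and 0.516 FPKM in RS WT. H3f3a, at chr1:182732691-182743736 (minus strand), was covered over 94.06% in PD WT by 2 peaks, which scored above 94.7% and 29.92% of that list, and over 94.31% in RS WT by 1 peak, which scored above 96.16% of its list. H3f3b, at chr11:115883275-115885818 (minus strand), was covered over 95.28% in PD WT and 46.82% in RS WT. Requiring cover of at least 50% of the gene left 6 members in PD WT and 5 in RS WT.

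Hist1h1t (chr13:23787680-23788414, plus strand), H1fnt (chr15:98086413-98087738, minus strand) and H2afb1 (chr2:17918044-17918585, minus strand) had no peak in any list, also with 2 kb added on each side. The nearest WT peak lay 58916 bases from Hist1h1t in PD, 84259 from H1fnt in RS and 68249 from H2afb1 in RS, the stages where each was highest. Among 54 autosomal genes shorter than 1500 bases with at least 50 FPKM in PD WT, 41 (75.9%) had a PD WT peak, and of 84 such genes in RS, 49 (58.3%) had one. Of the 64 clustered replication-type histone genes (symbols starting Hist1h to Hist4h, members left out), 7 (10.9%) had a peak in PD WT and 8 (12.5%) in RS WT. These 64 were taken at any FPKM and length, so their shares are not directly comparable with those of the short genes. Of the 6 members with a WT peak, 5 rose in PD Setd2KO and 1 rose in RS Setd2KO. Of the 3 without one, H1fnt rose in PD, and H1fnt and H2afb1 fell in RS. Over all tested genes, 23.9% of those with a PD WT peak and 45.8% of those without one rose in PD, while 7.14% and 4.0% fell. In RS 19.1% of those with an RS WT peak rose and 19.6% fell. Of those without an RS WT peak 25.3% rose and 27.3% fell. With so few members these counts are a description, and no difference by peak was tested.

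**Figure D5:**
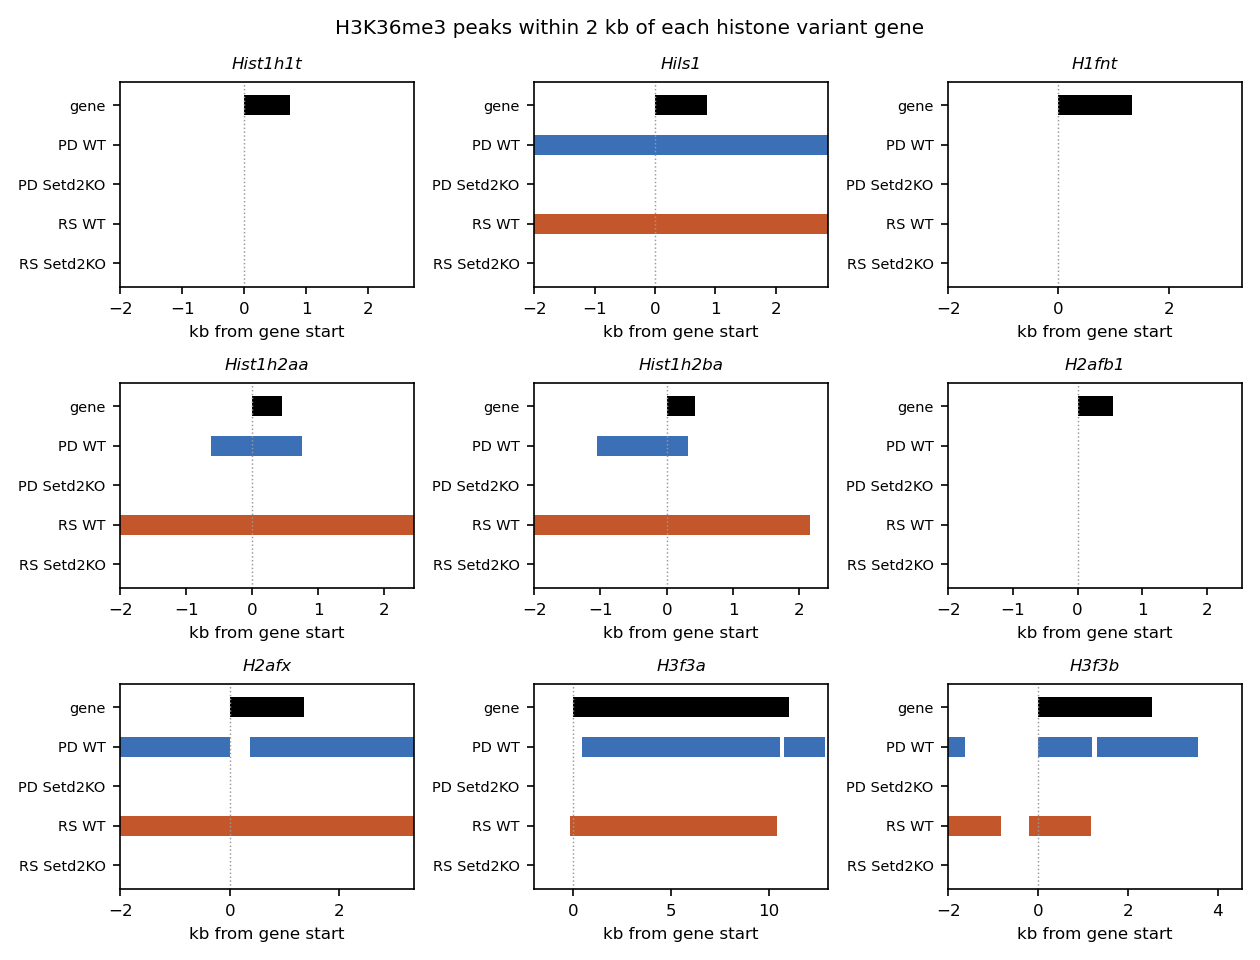
H3K36me3 peaks in the 4 lists (coloured bars) within 2 kb of each member (black bar), in kb from the gene start in the direction of transcription. Bars that reach the edge of a panel continue past it. Peaks are drawn for 6 members in the WT rows, and the Setd2KO rows and the panels of Hist1h1t, H1fnt and H2afb1 are empty.

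The genes around the members were described by list, each to be read against all tested genes, of which 29.8% rose and 6.3% fell in PD, with a median of 0.19, and 20.9% and 21.8% in RS, with a median of 0.02. Of 19 other histone variant genes listed, 10 were tested. In PD Setd2KO 4 rose and 0 fell, with a median log2 change of 0.35, and in RS 1 rose and 2 fell, with a median of 0.03. In PD the changes were 0.68 for H2afb3 (adjusted p = 0.0103), a relative of the short H2A variants, 0.52 for H2afy2 (adjusted p = 0.00621) and 0.49 for H2afy (adjusted p = 0.020), both macroH2A genes. H2afy was not called with upper-quartile scaling (adjusted p = 0.0772), and H2afb3 and H2afy2 were not with quantile normalization (adjusted p = 0.199 and 0.341). Without the first replicates of both PD groups 1 of the 10 rose, and none of these 3 was called (adjusted p = 0.0964 for H2afb3, 0.139 for H2afy2 and 0.130 for H2afy). In RS they were -0.70 for H2afv (adjusted p = 0.00135), an H2A.Z gene, 0.57 for Hist3h2a (adjusted p = 0.0424) and -0.41 for H2afy2 (adjusted p = 0.0162). With upper-quartile scaling 2 rose and 1 fell in PD, with quantile normalization 1 rose and 1 fell. The other H2A.Z gene, H2afz, had 155 and 235 FPKM in PD WT and 224 and 229 in PD Setd2KO, and its change was 0.25 (adjusted p = 0.326).

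A group of 20 relatives of H2afb1, of the H2A.L and H2A.B type, was chosen after values had been seen. Of these, 15 passed the filter, all through RS, and 4 of the 15 are copies with the same values, so counts over them describe these genes and support nothing. In RS Setd2KO 0 rose and 5 fell. H2al1n fell by 1.11 (adjusted p = 5.12e-05), with 9.95 and 8.99 FPKM in WT and 3.99 and 3.71 in Setd2KO. Gm14920 fell by 1.01 (adjusted p = 8.54e-05) and H2al3 fell by 0.76 (adjusted p = 0.00346). In PD Setd2KO 7 rose on the deposited scale, among them H2al1b at 0.74 and H2al1h at 0.63, and 0 of 15 with quantile normalization or without the first replicates of both PD groups. The 7 lie under 1 FPKM in PD WT. H2al1c, H2al1d, H2al1f and H2al1i hold the same 8 values, so these near-identical copies are uncertain.

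The clustered replication-type histone genes make the bulk of histones in dividing cells, and their mRNAs mostly end in a stem-loop without a poly(A) tail, so poly(A) selection samples only part of them. The members Hist1h1t, Hist1h2aa and Hist1h2ba carry symbols of the same kind and were read from the same poly(A) libraries. Whether this limit also applies to their levels and ranks was not tested. Of 60 clustered genes tested, members left out, 45 rose and 1 fell in PD Setd2KO, with a median log2 change of 0.80. With upper-quartile scaling 35 of 58 rose, with quantile normalization 36 of 60, and without the first replicates of both PD groups 26 of 59 rose and Hist1h4m (adjusted p = 0.0578) was not called. Hist1h3f, an H3 gene, had 3.65 ± 0.93 FPKM in PD WT and 11.5 ± 1.03 in PD Setd2KO (SD, n = 2), a change of 1.45 (adjusted p = 6.60e-05). Hist1h4m, an H4 gene, changed by 1.42 (adjusted p = 0.00262) and Hist1h1e, a somatic linker histone gene, by 1.33 (adjusted p = 5.20e-05). In RS 7 rose and 2 fell, with a median of 0.11. Hist1h2ag rose by 0.65 (adjusted p = 0.00192) and Hist1h4d by 0.61 (adjusted p = 0.0412). Hist1h2bm fell by 1.22 (adjusted p = 0.0307), from 3.41 ± 3.45 FPKM in RS WT, where its 2 libraries differ, to 0.586 ± 0.0297 (SD, n = 2). Without the first PD replicates the RS calls of Hist1h4d (adjusted p = 0.0574) and Hist1h2bm (adjusted p = 0.0862) were lost.

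Of 15 tested genes that process the 3′ ends of histone mRNAs, 5 rose and 1 fell in PD, with a median of 0.24, and 2 rose and 1 fell in RS, with a median of 0.03. In PD the cleavage factor gene Cstf2 rose by 1.34 (adjusted p = 0.000263), from 0.384 ± 0.0319 to 2.51 ± 0.468 FPKM (SD, n = 2). Casp8ap2, which encodes the FLASH protein of the histone locus body, rose by 0.66 (adjusted p = 0.000884), and Snrpb, a core spliceosome protein gene, rose by 0.65 (adjusted p = 0.00529). In RS the autosomal Cstf2 copy Cstf2t rose by 1.01 (adjusted p = 0.000273), Snrpb rose by 0.44 (adjusted p = 0.0268) and Lsm10, of the U7 particle, fell by 0.57 (adjusted p = 0.00868). The splits in PD were 3 and 3 with upper-quartile scaling, 4 and 4 with quantile normalization, and 3 and 0 without the first replicates of both PD groups, where Snrpb was not called (adjusted p = 0.0529).

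Of 20 tested histone chaperone and exchange genes, 5 rose and 1 fell in PD, with a median of 0.16, and 5 rose and 2 fell in RS, with a median of 0.02. Nasp, a chaperone of H1 and H3-H4, fell by 0.71 in PD (adjusted p = 0.00536), from 271 ± 2.59 to 165 ± 1.43 FPKM (SD, n = 2). In PD Nap1l1, a nucleosome assembly protein gene, rose by 0.57 (adjusted p = 0.00664) and Npm1, nucleophosmin, by 0.53 (adjusted p = 0.0231). In RS Nap1l4 and Npm1 each rose by 0.75 (adjusted p = 0.00140 and 0.00300), and the H3-H4 chaperone gene Asf1b rose by 0.65 (adjusted p = 0.00272). In PD the count became 1 and 3 with upper-quartile scaling, where Npm1 was not called (adjusted p = 0.0601), and 3 and 2 with quantile normalization. Without the first replicates of both PD groups it was 1 and 1, again without Npm1 (adjusted p = 0.0525).

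Of 22 tested genes of H2AX signalling and the sex body, 10 rose and 1 fell in PD, with a median of 0.29, and 6 rose and 4 fell in RS, with a median of 0.03. Brca1, which acts at the unsynapsed axes, rose by 0.69 in PD (adjusted p = 0.00339), and Hormad1, an axis protein gene, by 0.56 (adjusted p = 0.0175). Rad9a, of the checkpoint clamp, fell by 0.63 (adjusted p = 0.00136). In RS Hormad1 rose by 1.30 (adjusted p = 9.21e-05), from 8.82 ± 0.94 to 23.4 ± 4.55 FPKM (SD, n = 2), and Hus1b fell by 0.87 (adjusted p = 0.000125). Eya1, a phosphatase of H2AX tyrosine, rose by 0.87 in RS (adjusted p = 1.90e-05), from a mean of 0.492 FPKM to 1.73. Eya1 passed the filter only through RS Setd2KO, the group where it is high, so its call, counted among the 6, supports nothing. With the other scalings 2 (upper quartile) or 1 (quantile) of the list genes rose in PD. Hormad1 was called with neither there (adjusted p = 0.120 and 0.0793), nor Brca1 with quantile normalization (adjusted p = 0.0770). Without the first replicates of both PD groups 3 rose in PD and Hormad1 was again not called (adjusted p = 0.110).

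Of 28 tested genes of the histone to protamine exchange, 9 rose and 2 fell in PD, with a median of 0.26, and 4 rose and 10 fell in RS, with a median of 0.14. The protamine gene Prm2 fell by 1.19 in PD (adjusted p = 0.00197), while Prm3 rose by 0.99 (adjusted p = 0.00548) and Cdyl, a chromodomain protein gene, by 0.93 (adjusted p = 0.00168). In RS Prm1 fell by 2.02 (adjusted p = 1.19e-05), Prm2 by 1.99 (adjusted p = 4.11e-05) and the transition protein gene Tnp1 by 1.78 (adjusted p = 4.58e-05). Prm1 had 927 ± 20.6 FPKM in RS WT and 228 ± 13.3 in RS Setd2KO (SD, n = 2). In PD the other scalings gave 5 and 7 or 6 and 6, and leaving out the first replicates of both PD groups gave 5 and 4. In RS they gave 9 and 9 or 10 and 10.

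By the distance between centred log2(FPKM + 1) profiles over the 8 libraries, the genes most like Hist1h1t were Hist1h2ba (distance 1.02), Stox1 (1.60) and Hist1h2aa (1.87). Stox1, a winged helix protein gene, had 57.8 and 47.6 FPKM in PD WT and 40.1 and 42.8 in PD Setd2KO, and at most 0.736 in RS. The genes most like Hils1 were 1700015E13Rik (0.203), Tmco2 (0.210) and Cypt12 (0.230). Tmco2, like Hils1, was highest in RS WT, at 172 and 173 FPKM, against 117 and 152 in RS Setd2KO, and in PD it had 3.10 and 4.68 FPKM in WT and 17.4 and 9.42 in Setd2KO. No tested gene was nearer than 1.02 to Hist1h1t. Of all summed FPKM, the 9 members together took 1.12% and 1.19% in WT and 1.73% and 1.71% in Setd2KO spermatocytes. In round spermatids they took 0.358% and 0.339% in WT and 0.277% and 0.308% in Setd2KO.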

How the data were processed

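The authors deposited gene tables of FPKM values and H3K36me3 peak lists with a score for each peak. CASAVA, TopHat2, Cufflinks, Cuffdiff, Bowtie and bedtools are named in the submitters' processing notes, with build mm9 and no versions. Spike-in chromatin was used per the labels, but its use in scaling is not given in the sources used here. FPKM values were transformed as log2(FPKM + 1), pseudocount 1, and fitted in R 4.3.3 with limma 3.58.1 (intensity trend, 1 mean per group over 8 libraries, 4 residual and 6.92 prior degrees of freedom). A gene was kept if any group averaged 1 FPKM or more, and Benjamini-Hochberg adjusted p under 0.05 over 11452 genes was called. The fit was tested on simulated data. Depths were read from steps of the FPKM values, tolerance 0.02 reads. A peak over a gene overlapped it by at least 1 base.

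Members and gene lists were chosen with earlier results of these data known. Always named were the members and Setd2, then the 3 called list genes with the largest changes in PD and in RS, the 3 genes nearest to Hist1h1t and to Hils1, and genes sharing a member's peak. Alternatives were another pseudocount, filters, scalings, no trend, a replicate block, left-out libraries and peak thresholds. The 2 input samples, both from PD, were not analysed here. Of the genes sharing a member's peak, 1 is not reported here.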

Additional observations from a re-analysis of the deposited data

Results flagged for a closer look

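5 members differed between PD and RS in how they changed with the Setd2KO genotype, by the interaction term of the limma fit (Benjamini-Hochberg adjusted over 11452 genes). All 5 had a lower effect in RS, as did 27.3% of all tested genes, while 7.76% had a higher one. The effect in RS minus that in PD was -1.99 on the log2 scale for Hils1 (adjusted p = 0.00191), -1.64 for H1fnt (adjusted p = 0.000880), -1.12 for H2afb1 (adjusted p = 0.00545), -0.97 for H3f3b (adjusted p = 0.030) and -0.69 for Hist1h2aa (adjusted p = 0.020). Hils1 and H1fnt were higher in PD Setd2KO and their levels in both RS Setd2KO libraries were below both WT libraries. H2afb1 overlapped between genotypes in PD, and in RS both Setd2KO libraries were below WT. For H3f3b and Hist1h2aa both PD Setd2KO libraries were above WT and the RS libraries of the genotypes overlapped. Neither of these calls held under upper-quartile scaling or with some single libraries left out, as given above. Relative to the median gene, at -0.16, the differences were -1.83, -1.49, -0.97, -0.81 and -0.54 in the same order.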

How the results depend on the processing

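Of 756 recomputed member changes, 699 kept direction and side of the threshold. Counts of called members ranged, with libraries left out, from 3 to 7 in PD (6 in the full fit), stayed at 3 in RS, were 8 or 9 for RS against PD in WT and in Setd2KO, and ranged from 3 to 6 for the difference of effects (5). The count for that difference was 3 with upper-quartile scaling. Over all genes, called genes ranged over the alternatives from 1883 to 4586 in PD (4130), 2957 to 6951 in RS (4889) and 2452 to 4662 for the difference (4015).

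18 small changes, none called, turned direction, and the cause was not tested. Hist1h1t in PD was -0.12 with upper-quartile scaling and ranged from -0.085 to 0.29 with libraries left out. For H2afb1 in PD that range was -0.30 to 0.19, in RS it was -0.054 to 0.17 for Hist1h2aa, -0.0091 to 0.45 for Hist1h2ba and -0.18 to 0.31 for H3f3b, and for the difference it was -0.090 to 0.28 for Hist1h1t and -0.39 to 0.32 for H2afx. The difference for H2afx was also 0.073 with a pseudocount of 0.1, 0.24 with upper-quartile scaling and 0.085 with quantile normalization, and that for H3f3a 0.038 with upper-quartile scaling.

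Replicate numbers were not used to pair samples in the main fit. Deviations of libraries from their group mean correlated between groups at -0.31 to 0.07. The sign depends on how libraries were numbered, so these values cannot decide whether any samples are paired. With the replicate block the counts of called members stayed at 6, 3, 9, 8 and 5. In PD the calls of H1fnt and Hist1h2ba were lost with no filter (adjusted p = 0.0545 and 0.0647), and Hist1h2ba with only the 4 PD libraries (0.0986). H3f3a was gained with quantile normalization (0.0306) and without PD WT replicate 2 (0.00773). The libraries per group limit the spread estimate, and H2afb1 in PD rests on 39 to 70 fragments.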
